A study of Bactrocera oleae with 8 samples.

Results

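This is a set of 338 *Bactrocera oleae* array sequences whose signal was lower in larvae fed upon green olives and in larvae fed upon black olives than in larvae reared on artificial diet. The members were chosen by their scanner log ratios among the 20516 sequence names of the array. On the log2 scale the mean ratio of green olives to artificial diet had to be -0.8 or lower, the difference between black olives and artificial diet had to be -0.8 or lower, and at least 0.5 of the spots had to read well above background in the artificial diet channels. A total of 340 names passed, and the 2 entries of contig00002, which is viral, were left out, so the set holds 1.65% of all names. The values that chose the members are the values described here, so in all 3 comparisons they are given as a description, and counts of calls stand only beside the share of all contigs called.

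RNA was taken from 2nd-instar larvae in pools of 20 and hybridised to 8 two-colour arrays on one slide. Larvae fed upon green olives (GO) came from infested fruit collected in September, larvae fed upon black olives (BO) from fruit of the same orchard collected the following January, and larvae on artificial diet (AD) hatched in the laboratory from eggs of flies reared from that orchard and fed on brewer's yeast, soy hydrolysate, sugar, olive oil and preservatives. GO was labelled with Cy5 on all 8 arrays, and Cy3 held BO on 4 arrays and AD on the other 4, so GO differed from AD in dye as well as in food, whereas BO and AD shared a dye and never shared an array. Season, origin in the field or the laboratory, and feeding regime cannot be told apart in this design. The study's methods name 4 green olive replicates, each of them set against both partners. The green channel of each AD array deviated from its group mean together with that of one BO array, with correlations over 12312 contigs of 0.751 to 0.914, whereas the other array pairs lay between -0.616 and -0.115. The 8 green channels are therefore given as channels and not as 8 separate pools.

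*B. oleae* larvae live in the flesh of a single kind of fruit, which is rich in phenolic compounds when unripe, and the artificial diet replaces that flesh with yeast and hydrolysed protein. Insects meet such compounds with cytochrome P450 monooxygenases, which oxidise foreign molecules and also hormones and fatty acids, and with glutathione S-transferases, which couple them to glutathione. The P450 family is large, and its members differ widely in substrate, so a family name alone does not give an enzyme's role.

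Of the 338 members, 25 carry a description in the study's tables, and 313 have none there. Another 3 members bear a P450 name given by the array design itself. The tables describe only contigs that passed the thresholds in these same arrays, so membership and description are not independent. After background correction and normalization, all 338 members remained below 0 in both comparisons with AD, from -4.73 to -0.16 for green olives and from -3.27 to -0.11 for black olives. For the 3 lowest green olive values, green olives were not well above background on 3 of the 4 AD arrays. The median log2 value was -0.53 for green olives against AD and -0.56 for black olives against AD, beside 0.01 for each over all contigs. Between green and black olives the members had a median of 0.03, 299 of them lay within 0.5 of 0, 30 were above 0.5 and 9 were below -0.5. Pools were of whole larvae, so fewer cells of a type and less RNA per cell cannot be told apart.

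**Figure D1:**
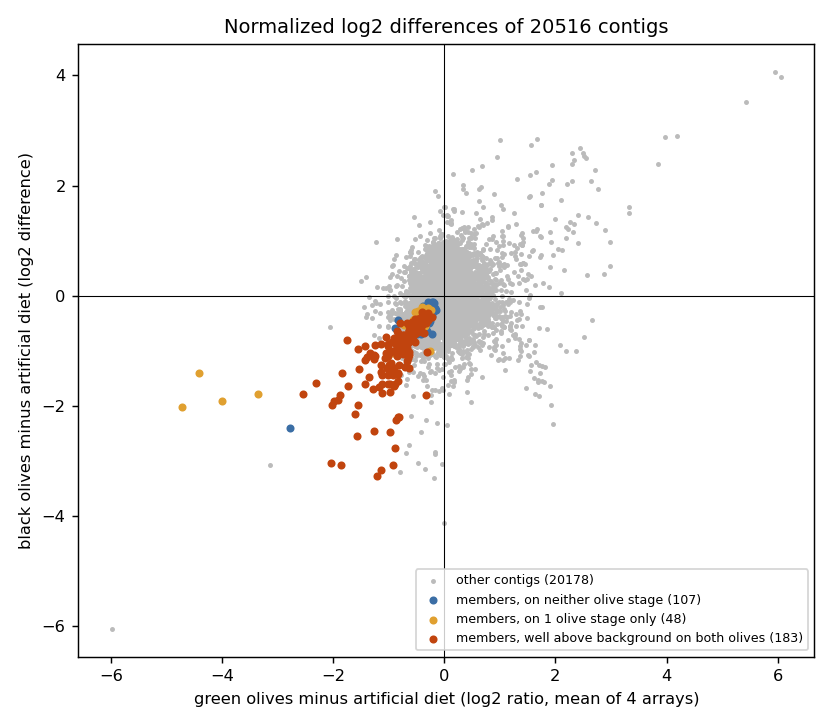
Normalized log2 difference between green olives and artificial diet (x axis) and between black olives and artificial diet (y axis) for each of 20516 contigs. Members are coloured by whether at least 0.5 of their spots read well above background on both, 1 or neither of the olive stages, and other contigs are grey. Members reach from -4.73 to -0.16 on the x axis, and grey points further out at the lower left include both entries of the viral contig00002.

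The limma model with Benjamini-Hochberg adjustment over all contigs called a contig at an adjusted p-value threshold of 0.05 and an absolute log2 value above 1. It called 37 members lower in green olives than in AD, where 0.283% of all contigs were called in that direction, and 39 members lower in black olives than in AD, where 0.609% were. On each of the 4 AD arrays the ratio lay below 0 for 282 members (18.8% of all contigs), and for 173 members every AD array ratio lay below every BO array ratio (7.91%). In both comparisons 21 members were called lower, beside 0.112% of all contigs. Between green and black olives 7 members were called higher in green (1.74% of all contigs) and 4 lower (0.512%). Since the rule used these contrasts, nothing is read from the difference between the members and the background. The count for black olives against AD fell from 39 to 20 without BO replicate 4, to 21 without AD replicate 1 and to 19 without AD replicate 3, and the count between green and black olives fell from 11 to 5 without BO replicate 2.

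A cytochrome P450 name was borne by 6 members, 3 of them named by the array design and not by the study's tables. By description alone 3 members were P450s, so the count of 6 does not rank this family above others. The array held 15 sequences named as *B. oleae* P450s, cloned with degenerate primers, of which 3 were members, and 7 contigs described as P450, of which another 3 were members. Contig00383, which resembles cytochrome P450-6D8 of the house fly, read 13.60, 13.63, 13.58 and 13.68 on the log2 intensity scale in the 4 AD channels. In the BO channels it read 11.99, 12.04, 12.44 and 12.57, and in the 8 green channels it ran from 11.64 over a median of 11.80 to 11.94. Every AD channel was above every olive channel, and the 4 AD values of contig00383 lay closer together than its BO values. Its log2 ratio of green olives to AD was -1.84 ± 0.10 (SD, n = 4 arrays), which is 3.58-fold lower, and its difference between black olives and AD was -1.40 with a standard error of 0.14.

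The sequence named boCYP6A9-5 read 13.49, 13.99, 13.88 and 13.95 in AD and 12.18, 12.03, 12.56 and 12.37 in BO, with green channels from 12.23 to 12.66 around a median of 12.39. Both olive stages lay at about the same level, and neither overlapped AD. The log2 ratio was -1.44 ± 0.22 (SD, n = 4 arrays) for green olives and the difference was -1.61 (standard error 0.15) for black olives. Contig04361, which resembles a P450 monooxygenase of the oriental fruit fly, had 13.99, 14.48, 14.44 and 14.11 in AD, 13.22, 13.42, 13.15 and 13.13 in BO, and 12.87 to 13.19 in the green channels. It was lower on both olives without overlap, by -1.25 ± 0.10 (SD, n = 4 arrays) for green olives and -1.09 (standard error 0.09) for black olives.

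The array sequence boCYP6A14-7 gave ratios within 0.13 of those of contig04361 on each of the 8 arrays, and the pair is not taken as independent. Its AD channels read 13.60, 13.61, 13.58 and 13.21, against 12.37, 12.57, 12.38 and 12.33 in BO. Sequence boCYP6A38V1-9 had the smallest differences of the 6 P450 members, -0.94 ± 0.20 (SD, n = 4 arrays) in green olives and -0.84 (standard error 0.18) in black olives. Its AD channels, 14.60 to 14.96, still lay above all BO channels, 13.69 to 14.44, and above all green channels, 13.75 to 13.99.

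Contig02809, also described as a cytochrome P450, read 11.21, 11.89, 11.55 and 11.47 in AD, 9.98, 7.40, 9.11 and 9.37 in BO, and 9.73 to 10.63 in the green channels. BO pool 2 was the lowest by a wide margin, and the black olive range overlapped the green one. Its black olive difference was -2.45 (standard error 0.52), its green olive ratio was -1.26 ± 0.47 (SD, n = 4 arrays), and its ratio between green and black olives, which was not called, was 1.19 ± 1.12 and 0.64 without BO replicate 2.

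The remaining 16 of these named or described P450 sequences were outside the set. Any P450 contig without a description in the study's tables is not counted. Among the 12 others with a P450 name from the array none was called in green olives against AD, boCYP9F2-12 was called lower in black olives at -1.13 with a green olive value of -0.60, and none was called higher. Values of these sequences ran from -0.78 for boCYP12B2-14 to 0.58 for boCYP12A3-13 in green olives. Of the 4 other described P450 contigs, contig06535, described as cyp6g1, a gene known for insecticide resistance in *Drosophila*, was at -1.41 in green and 0.33 in black olives, and contig06015 was at -0.47 and -1.46. Contig03604 went the other way, at 1.55 and 2.19, and contig10157 was at 0.38 and 1.18. Of all 7 described P450 contigs, 3 were called lower and 1 higher in green olives, and 4 lower and 2 higher in black olives, beside 0.77% and 0.327% of all contigs called higher in green and black olives. Since a contig was described only where it passed thresholds in these arrays, these counts restate how the list arose.

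**Figure D2:**
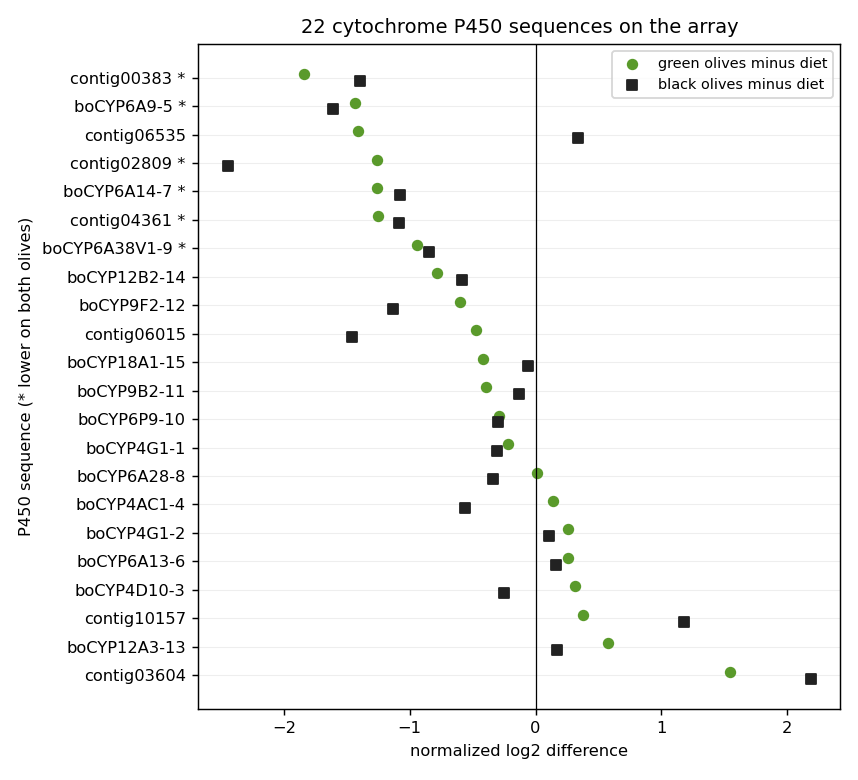
Normalized log2 difference from artificial diet (x axis) of the 22 sequences with a P450 name or description (y axis, ordered by the green olive value), for green olives (green circles) and black olives (black squares). The 6 sequences with an asterisk are members, with both values at -0.84 or lower, whereas contig03604 lies at 1.55 and 2.19.

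One glutathione S-transferase was a member. Contig03074, which resembles glutathione S-transferase 6B of the house fly, had 12.88, 13.10, 13.38 and 13.11 in AD, 12.22, 11.88, 12.63 and 12.31 in BO and 11.73 to 12.25 in the green channels. AD did not overlap either olive stage, and the values were -1.14 ± 0.24 (SD, n = 4 arrays) for green olives and -0.88 (standard error 0.25) for black olives. Other described glutathione S-transferases were outside the set and were higher in black olives than in AD. For green and black olives contig09042 was at 0.23 and 1.17, and contig08281 at -0.12 and 1.82. Contig00573, described as CHKov1, a *Drosophila* gene with an allele tied to resistance against a rhabdovirus, read 11.47, 10.89, 11.49 and 11.69 in AD and 10.31, 11.08, 10.72 and 10.31 in BO, so these groups overlapped, while its green channels ended at 9.80. Its values were -1.75 ± 0.35 (SD, n = 4 arrays) in green olives and -0.80 (standard error 0.27) in black olives.

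Enzymes and transporters of general metabolism made up another part of the described members. Contig02029 resembles alcohol dehydrogenase, which oxidises alcohols such as those of fermenting food. It was even among AD pools, at 11.88, 11.74, 11.74 and 11.71, and read 10.21, 10.54, 10.26 and 10.05 in BO and 10.34 to 10.80 in the green channels. The values were -1.12 ± 0.19 (SD, n = 4 arrays) for green olives and -1.44 (standard error 0.19) for black olives, with no overlap with AD. It was the single member among 11 described dehydrogenases and reductases. Contig02278 resembles amd, a relative of dopa decarboxylase that is needed for cuticle formation in *Drosophila*. Its AD channels, 13.68, 12.91, 13.62 and 13.15, were above all BO channels, 12.78, 12.28, 11.59 and 11.93, but overlapped the green channels, which ran from 11.87 to 12.92. Its values were -0.95 ± 0.40 (SD, n = 4 arrays) in green and -1.22 (standard error 0.26) in black olives.

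Contig06412 is described as copper transporter 1B, a protein that brings copper into cells, and is known from the *Drosophila* gut. It read 11.09, 11.13, 11.82 and 11.26 in AD, 10.08, 9.89, 10.31 and 10.09 in BO and 9.51 to 10.07 in the green channels. The difference was similar on both olives, at -1.43 ± 0.36 (SD, n = 4 arrays) for green and -1.16 (standard error 0.23) for black. Contig01188, described as a sodium-dependent phosphate transporter, had 13.20, 13.85, 13.63 and 13.79 in AD, 12.14, 12.03, 12.81 and 12.30 in BO and 12.48 to 12.72 in the green channels. AD lay above both without overlap, by -1.03 ± 0.30 (SD, n = 4 arrays) and -1.31 (standard error 0.23). Of 11 described transport and excretion contigs these were the 2 members.

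**Figure D3:**
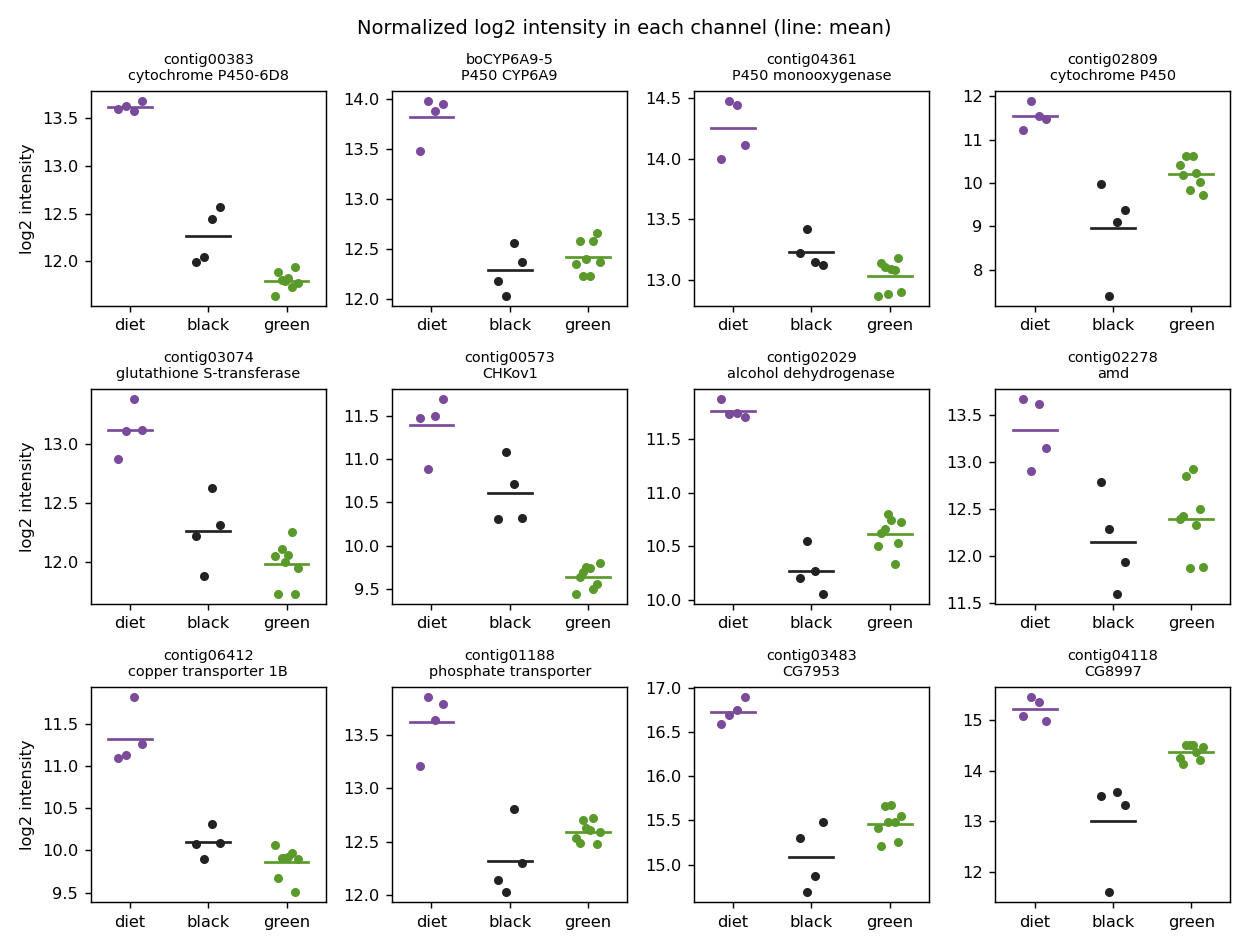
Normalized log2 intensity (y axis) of 12 members in each channel of artificial diet (4 pools), black olives (4 pools) and green olives (8 channels), with a line at the mean of each regime. Each panel has its own axis, which does not start at 0. Artificial diet lies above both olive stages except where contig00573 overlaps black olives and contig02278 overlaps green olives.

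The *Drosophila* genes CG7953, CG7916 and CG8997 were the best named matches of 4 members. Contig03483 (CG7953) read 16.58, 16.69, 16.75 and 16.89 in AD, 15.30, 14.69, 14.87 and 15.48 in BO and 15.21 to 15.67 in the green channels. It was lower by -1.29 ± 0.19 (SD, n = 4 arrays) on green and by -1.69 (standard error 0.16) on black olives. Both CG8997 contigs were members but kept different distances between olive stages. Contig04118 had 15.08, 15.45, 15.36 and 14.98 in AD, 13.49, 11.61, 13.58 and 13.32 in BO and 14.14 to 14.51 in the green channels, so all 3 regimes were apart, with green olives in the middle. Contig04546 had 15.05 to 15.84 in AD, 14.16 to 14.85 in BO and 14.20 to 14.47 in the green channels, so the olive stages overlapped. Contig04052 (CG7916) was highest in AD pool 4, at 15.30 beside 13.87, 14.08 and 13.96, and ran from 12.45 to 13.84 in BO and from 12.51 to 12.97 in the green channels. These 4 were among 13 contigs picked by words in their descriptions, such as apolipoprotein d, odorant-binding, antigen 5 and these gene numbers. The descriptions of the 4 name no function.

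The other described members match proteins known only by gene numbers or as uncharacterised. Contig02044, a match to GG20487 of *Drosophila erecta*, had 11.46, 11.99, 11.41 and 11.49 in AD, 10.37, 9.19, 9.88 and 9.55 in BO and 9.51 to 10.03 in the green channels. With -1.87 ± 0.13 (SD, n = 4 arrays) in green olives and -1.79 (standard error 0.25) in black olives the olive stages overlapped and both lay apart from AD. Contig10734 was at -1.53 ± 0.24 and -1.33 (standard error 0.16). Contig07778 was at -1.12 and -1.60, contig03663 at -1.01 (-0.65 without AD replicate 3) and -1.10, and contig01164 at -1.43 and -0.90. Among all 25 described members, every AD channel was above every BO channel in 23 and above every green channel in 24, beside 208 and 181 of all members and 10.2% and 6.47% of all contigs. All 25 had a ratio below 0 on each of the 4 AD arrays. The described members were split on the order of the olive stages, with green above black in 13 and below it in 12.

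Contig05020, an uncharacterised conserved protein, read 14.19, 14.59, 14.51 and 13.97 in AD, 12.95 to 13.81 in the green channels and 12.10, 10.22, 11.99 and 11.39 in BO. The 3 regimes did not overlap, and its values were -0.89 ± 0.40 (SD, n = 4 arrays) for green and -2.76 (standard error 0.37) for black olives. Its ratio of green to black olives was 1.87 ± 0.75. The secreted protein contig08750 was at -0.84 and -1.42, contig04339 at -0.83 and -1.54, and contig08250 at -0.90 and -1.64 for green and black olives, and none of these 3 was called between the olive stages. The mean of contig07983 was lower on green olives instead. Contig07983, a match to CG5765, had 12.10 to 12.50 in AD, and its BO pools read 11.82, 11.14, 8.41 and 10.76. Its black olive difference of -1.59 rested in large part on BO pool 3 and was -0.72 without it, while its green olive ratio was -2.31 ± 0.61 (SD, n = 4 arrays).

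No member was described as a digestive enzyme, a myo-inositol oxygenase or an enzyme of purine or tyrosine breakdown. The 313 members without a description could not be sorted into these groups. Only 1.65% of all names were members, and no share over all described contigs is given, so nothing is read from the absence. None of the 25 contigs picked by words for digestion in their descriptions (trypsins, other proteases, lysozymes, nucleases, maltases and peritrophins) was a member. None of 5 myo-inositol oxygenase contigs was a member either, and their scanner log2 ratios of green olives to AD, from -0.45 to 0.02, were above the threshold of -0.8. Neither of the 2 described contigs of purine and tyrosine breakdown was a member, urate oxidase (contig02471) being at -1.16 and -0.31 in green and black olives and homogentisate dioxygenase (contig04868) at -0.39 and -1.07. One member, contig06956, matches the gag-pol polyprotein of a *Drosophila* retrotransposon and was at -0.83 ± 0.46 (SD, n = 4 arrays) in green and -1.02 (standard error 0.22) in black olives.

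Many members without a description also held apart from AD on both olives. Contig06950 had 11.48, 11.09, 11.13 and 11.03 in AD, 8.81, 9.27, 9.61 and 9.23 in BO and 8.94 to 9.36 in the green channels. Contig06353 had 11.25, 10.85, 11.01 and 10.76 in AD, 8.47, 8.88, 9.06 and 8.93 in BO and 8.56 to 9.22 in the green channels. Neither overlapped between AD and olives, and the olive stages overlapped each other. The values were -1.98 ± 0.35 (SD, n = 4 arrays) and -1.91 (standard error 0.21) for contig06950 and -1.92 ± 0.35 and -1.89 (standard error 0.19) for contig06353. Contig04747 was lower on black olives, at -3.07 (standard error 0.39), than on green olives, at -1.87 ± 0.60. It read 12.27, 10.88, 11.62 and 10.37 in AD, 9.12 to 9.81 in the green channels and 8.85, 8.34, 7.51 and 8.25 in BO.

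A trio of reverse-strand members, rc_contig11564, rc_contig10962 and rc_contig10738, had the highest ratios of green to black olives in the set, at 2.15, 2.05 and 2.02. They moved together from pool to pool. For rc_contig10738 the AD pools read 16.83, 16.01, 16.41 and 15.15, the green channels 14.83 to 15.33 and the BO pools 14.13, 13.54, 11.38 and 13.47. AD pool 4 was the lowest AD pool and BO pool 3 the lowest BO pool for each of the 3. On the AD array of that pool the ratios of green olives to AD were only -0.04, -0.25 and -0.29, so for these members the low value in green olives rested on the other 3 AD pools, and AD overlapped the green channels.

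The lowest ratios of green to black olives belonged to rc_contig00932, contig01400 and rc_contig05454, and rc_contig03245 shared their pattern. Contig01400 read 12.41, 10.99, 11.86 and 11.87 in AD. In BO it read 10.95, 10.62 and 10.86 in pools 2, 3 and 4 but 6.21 in pool 1, where no spot was well above background. Its green channels read 9.10 on AD array 1 and 9.06 on BO array 2, the arrays whose green channels deviated together most closely, and 6.17 to 6.52 on the other 6 arrays, where no spot was well above background. The same pools were high and low for the other 3, and only these 4 members had BO pool 1 below 6.6 with the other BO pools above 7.5. All 4 were thus above background in every AD pool, in 3 of 4 BO pools and on 2 green arrays, apart from 0.333 of the spots of rc_contig03245 on AD array 3.

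On AD array 1, where all 4 were well above background in green olives too, the ratios of green olives to AD were -3.32 for contig01400, -2.32 for rc_contig00932, -2.73 for rc_contig05454 and -3.05 for rc_contig03245. On the other 3 AD arrays they ran from -5.68 to -3.22, against green readings at or near background, so no mean is given. The black olive differences were -2.01, -1.40, -1.90 and -1.79, and depended on BO pool 1. Without it they were -1.11, -0.37, -1.22 and -1.24 in the same order. For rc_contig00932 the other 3 BO pools, at 10.92 to 11.70, overlapped the AD pools, at 10.72 to 11.83, and among arrays at slide position 2 its black olive difference was 0.33. The sequences carry no description, and what they encode is not given in the sources used here.

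**Figure D4:**
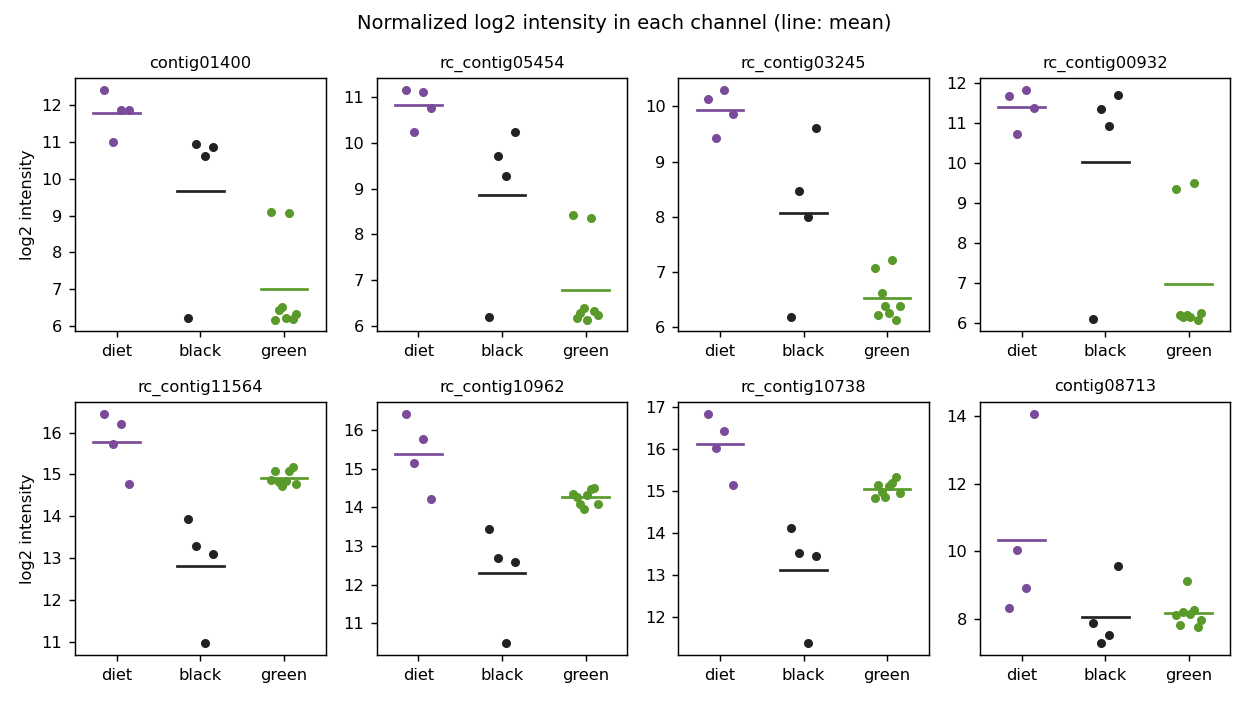
Normalized log2 intensity (y axis, one scale per panel, not starting at 0) of 8 undescribed members in each channel of artificial diet (4 pools), black olives (4 pools) and green olives (8 channels), with a line at each mean. In the 4 contigs of the upper row BO pool 1 lies near 6.2 and 2 green channels lie above the rest, in the first 3 panels of the lower row BO pool 3 is lowest, and in contig08713 AD pool 4 stands at 14.07.

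Single pools also carried other members. Contig08713 read 8.31, 10.04, 8.91 and 14.07 in AD, 7.27 to 9.57 in BO and 7.76 to 9.12 in the green channels, so the groups overlapped. Its values of -2.02 ± 2.14 (SD, n = 4 arrays) and -1.98 (standard error 1.03) fell in size to -1.04 and -1.01 without AD pool 4. Contig01720, a match to a numbered *Drosophila virilis* protein, read 12.21, 7.32, 9.32 and 9.52 in AD, 6.19 to 8.49 in BO and 6.02 to 7.31 in the green channels. Since 0.25 of its spots were well above background in green olives on the AD arrays and 0.38 in BO, its means of -2.78 ± 1.76 (SD, n = 4 arrays) and -2.40 (standard error 0.89) rest on readings near background. Contig12861 was steadier in AD, at 11.68 to 12.85, but ran from 6.95 to 10.73 in BO. Over all members the range across the 4 AD pools had a median of 0.57, was above 1 in 56 members and above 4 in 5. Across the 4 BO pools it had a median of 0.47 and was above 1 in 52.

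AD replicate 3 stood apart from the other AD arrays for the set as a whole. The median log2 ratio of the members was -0.80 on that array, against -0.48, -0.32 and -0.42 on AD replicates 1, 2 and 4, and -0.04 to 0.14 on the BO arrays. It gave the lowest ratio of the 4 AD arrays for 214 members and the highest AD level for 204. Without this array the median was -0.43 for green olives and -0.47 for black olives. The members had been chosen with this array included, so the sign of these medians is not a test of the direction. The part of this pool in the choice of members was not tested. AD replicate 1 shared slide position 1 with BO replicates 1 to 3, and AD replicates 2 to 4 shared position 2 with BO replicate 4. The median difference between black olives and AD was -0.56 within position 1 and -0.55 within position 2, beside 0.008 and 0.006 over all contigs. The rule used this difference on these same arrays, so the medians are a description only.

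After normalization, but not on the scanner scale, the median difference was smaller in dim members than in bright ones. In both olive stages, with green olives read on the AD arrays, 183 members had at least 0.5 of their spots well above background, 45 had this in black olives only, 3 in green olives only and all the others in neither stage. Of the 25 described members 24 were in the first group. In that group the median was -1.01 on the scanner scale and -0.79 after normalization for green olives against AD. In the members near background in both olive stages the scanner median was -1.15, but after normalization it was -0.33. The 48 members flagged well above background in a single stage lay between, with -1.16 and -0.43. Their median log2 ratio of green to black olives was -0.0055. Green olives were read in Cy5 and black olives in Cy3, and no share over all contigs is given. The counts of 45 and 3 are therefore not read as expression in a single olive stage. The ratios of the dim members thus differed more between the 2 scales than those of the bright members, and 173 of the 338 had a normalized value above -0.5 in at least one of the comparisons with AD.

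**Figure D5:**
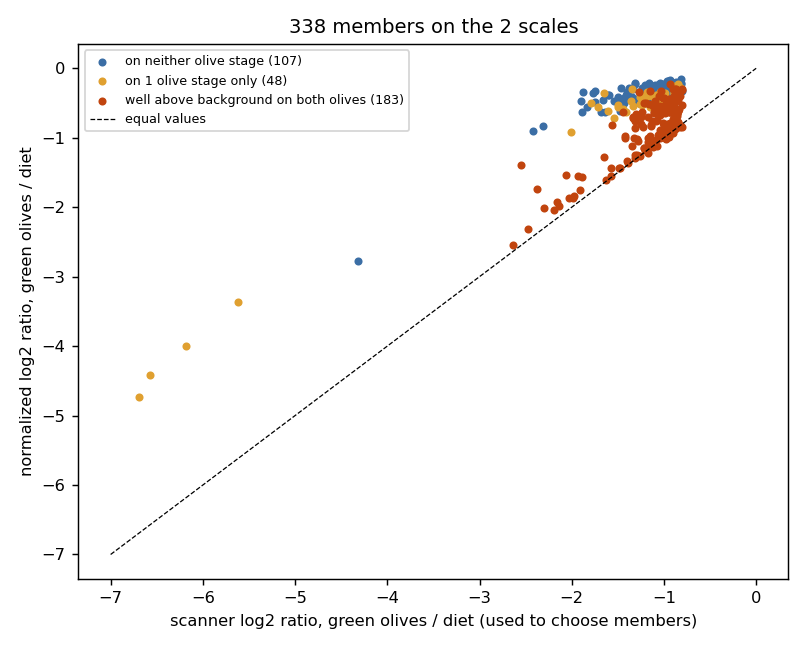
Scanner log2 ratio of green olives to artificial diet, which was used to choose the members (x axis), against the normalized log2 ratio (y axis) for 338 members, with a dashed line at equal values. Members near the line are nearly all well above background on both olive stages, and those well above it on neither stage lie far from the line, with medians of -1.15 and -0.33.

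The entries of the set are not all separate genes. Probes had been placed on both strands of many contigs, an entry with the prefix rc being the reverse strand, and the 338 members came from 317 contigs, with 21 contigs present on both strands. Reverse-strand entries were 38.8% of the members and 32.5% of all names. Contig04747 was at -1.87 and -3.07 and its reverse strand at -1.57 and -2.54, and contig12695 was at -0.91 and -1.31 and its reverse strand at -0.93 and -1.44. Others differed, such as contig06950 at -1.98 and -1.91 with its reverse strand at -0.38 and -0.45. The members had 968 probes, of which 959 were lower on both olives after normalization. Of the 315 members with over 1 probe, 306 had every probe lower on both. The rule averaged these same probes and no share over all contigs is given, so nothing is read from these counts.

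At the edge of the rule, contig10738 was just inside with a scanner log2 ratio of -0.8001 in green olives and -2.40 in black olives, and contig08013 with -0.82 and -0.8008. Just outside were contig01420, at -0.799 and -0.92, and contig13458, at -0.90 and -0.7986.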

How the data were processed

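Two-colour Agilent arrays of *B. oleae* larvae were analysed, 4 with GO (Cy5) against BO (Cy3) and 4 with GO against AD. Per the file headers the authors extracted the deposited spot intensity and log10 ratio values with Feature Extraction 10.7.3.1, and the submitters' processing notes name 10.5. The series value table, also deposited, matched the scanner's log10 ratios of Cy5 over Cy3 to within 0.005, with column medians of 0.

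Members were chosen from the scanner's log10 ratios times 3.3219. For all other values median intensities were background-corrected (normexp, offset 50) and ratios were normalized by loess and Aquantile. The background correction, loess and Aquantile follow the study's methods. In addition 1319 control spots per array were left out, and outlier spots were excluded from the loess fit and from the averages. Spots of a probe and then probes of a contig were averaged, and 4 contigs lacked a value on some array. One linear model per contig was fitted to the 8 arrays, taken as independent although green pools may be shared between them (limma 3.58.1, R 4.3.3), with Benjamini-Hochberg adjustment over 20516 names. Standard errors and calls rest on the arrays being independent, and no fit paired the arrays by their green channels. Between 56.9% and 67.2% of spots were well above background per channel, and no spot was saturated. The number of arrays limits the precision, and intensities of different probes are not compared as amounts of RNA.

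Descriptions come from the study's tables. Named contigs are the described members, the 10 with the lowest of the higher of the 2 differences from AD, and the extremes between olive stages. The members, lists and tests were chosen with earlier results of these data known. The fit was tested on simulated ratios. Alternatives covered background correction, scaling, probe averaging, a filter on dim contigs, slide position, the replicate number as a block and leaving out each array.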

Additional observations from a re-analysis of the deposited data

Results flagged for a closer look

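In 9 of 120 groups of levels of the named members, 1 channel lay apart from the others of its regime by Dixon's criterion at the 95% level, which chance gives in about 1 of 20 groups. In artificial diet these were contig02044 in pool 2, at 11.99 beside 11.49 for the nearest, contig04052 in pool 4, at 15.30 beside 14.08, contig07778 in pool 3, at 15.44 below 15.79, and boCYP6A14-7 in pool 4, at 13.21 below 13.58. In black olives they were contig01164 in pool 2, at 11.72 below 12.23, contig04118 in pool 2, at 11.61 below 13.32, contig01400 in pool 1, at 6.21 below 10.62, and rc_contig00932 in pool 1, at 6.11 below 10.92. In green olives it was contig08713 on AD array 4, at 9.12 above 8.26. No 2 of the 4 diet values point to the same pool in the same direction, while the 4 black olive values all lie at the low end, in pools 1 and 2. Members were chosen for low black olive values, and contig01400 and rc_contig00932 share a pool pattern. The rate of 1 of 20 holds for independent groups that were not selected, so nothing is read from these counts.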

How the results depend on the processing

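The median log2 values of the members stayed negative against artificial diet for both olive stages in every alternative run. Without single arrays they ran from -0.567 to -0.425 for green olives, from -0.617 to -0.468 for black olives and from 0.01 to 0.061 between the olive stages. With the scanner's processed signals the medians were -1.07 and -1.122, and with the value table of the series -1.072 and -1.15. The members were chosen on this scale. The calls depended more on the setting. Members called in green olives against diet numbered 37, and 170 with processed signals, 151 with the value table, 21 with the replicate block and 27 to 41 without single arrays. Those in black olives numbered 39, and 65 with processed signals, 20 with slide position as a covariate, 2 with the replicate block and 19 to 39 without single arrays. Those between the olive stages numbered 11, and 3 with the own 4 arrays only and 5 to 14 without single arrays. The replicate numbers do not pair the pools, since same-numbered green channels correlated at -0.128, -0.616, -0.115 and 0.883, so a call lost under the block is not a weaker effect. The rule itself kept 166 names at thresholds of -1, 679 at -0.6, 213 with all spots well above background and, chosen after seeing the data, 87 on the normalized ratios, all of them members. Of 2360 values of named members under the alternatives, 22 moved by more than 1 SD of the arrays. Of the 1560 among them that are differences from artificial diet, 1 changed sign, that of rc_contig00932 in black olives, at 0.11 with slide position as a covariate.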
